A study of Mus musculus with 9 samples.

Results

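Cytosolic HSP90 and its co-chaperones were followed through the heat response of mouse testicular peritubular myoid cells, the contractile cells that wrap the seminiferous tubules. The group was taken by gene symbol and holds 10 genes of the 17559 with values: Hsp90aa1 and Hsp90ab1, which encode the HSP90α and HSP90β proteins, and the co-chaperones Ahsa1, Stip1, Ptges3, Cdc37, Chordc1, Cacybp, Fkbp4 and Fkbp5. The cells were primary cultures from C57BL/6J mice grown at 37 °C in serum-containing medium, in 3 groups of 3 libraries each. Control cells received no treatment. The heated dishes stood in a 42 °C water bath for 30 min, went back to the incubator and were collected 1 h or 6 h later. The labels give neither the age of the mice nor the number of animals or cultures behind a replicate, so the p-values speak only for how far these libraries spread, and that spread may be technical.

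HSP90 is an abundant dimeric ATPase that completes the folding of client proteins such as steroid hormone receptors and protein kinases. Clients arrive from the HSP70 system, and co-chaperones load them, set the pace of the ATPase cycle and release them. In mammals Hsp90aa1 is known as the heat-inducible form and Hsp90ab1 as the constitutive form, and transcription of heat shock genes is driven by the factor HSF1 at repeated nGAAn units in DNA. HSP90α is also known to be needed in male germ cells.

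Depth, estimated from the smallest values, lay between 19000000 and 19900000 reads in all 9 libraries. Acta2 at 992 to 1627 FPKM and Tagln at 1602 to 2231 FPKM, both contractile genes, marked the cells as labelled, and all 8 fixed myoid markers reached 1 FPKM. Transcripts of other testicular cells were also present. The summed Leydig markers (7 genes, 4 of which reached 1 FPKM) ranged from 872 to 2138 FPKM. Among them Insl3 stood at 181 to 1607 FPKM and Cyp11a1 at 288 to 820 FPKM, while the defining genes Cyp17a1, Hsd17b3 and Lhcgr reached at most 0.11, 0.12 and 0.27 FPKM. The summed Sertoli markers (8 genes, 6 of which reached 1 FPKM, with Fshr at most 0.09) came to 3027 FPKM in control replicate 3 and to 197 to 469 FPKM in the other 8 libraries. The 6 h replicate 2 library stood apart from the other 6 h libraries in several members below.

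Hsp90aa1 was the member with the largest difference after heat. This gene (NCBI gene 15519, mm10 chromosome 12, 110691036 to 110696395, minus strand) stood at 357, 419 and 328 FPKM in the control libraries, at 1165, 1569 and 1242 FPKM at 1 h and at 1307, 264 and 703 FPKM at 6 h, in replicates 1, 2 and 3. Every 1 h library lay above every control library. At 6 h, replicates 1 and 3 lay above all controls and replicate 2 lay below all of them. The mean was 1325 ± 215 FPKM at 1 h and 368 ± 46.7 FPKM in control (SD, n = 3 each), a ratio of 3.60. The difference in log2(FPKM + 1) came to 1.84 (SE 0.47) and had a limma adjusted p of 0.264 in the fit of all 9 libraries, in which the groups share 1 spread per gene. That spread includes the 6 h libraries, whose SD was 524 FPKM around a mean of 758 FPKM. In a fit of the control and 1 h libraries alone the SE was 0.19 and the limma adjusted p 0.012. Over the 18 alternatives to the 9-library fit the adjusted p ranged from 0.012 to 0.707, and 3 of the 18 called the gene: the fit of the 2 groups alone, that fit with the replicate number as a block (adjusted p 0.0303) and the fit without 6 h replicate 2 (adjusted p 0.0287). Without both control replicate 3 and 6 h replicate 2 the adjusted p was 0.0815.

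Hsp90ab1 (NCBI gene 15516, chromosome 17, 45567778 to 45573261, minus strand) was the more abundant form without heat. It stood at 718, 858 and 673 FPKM in control, at 1218, 1462 and 1221 FPKM at 1 h and at 1188, 904 and 1007 FPKM at 6 h. All libraries of both heated groups lay above all controls, including 6 h replicate 2. Its mean was 1301 ± 140 FPKM at 1 h and 750 ± 96.4 FPKM in control, a ratio of 1.73. The log2 difference was 0.80 (SE 0.19, limma adjusted p 0.222) at 1 h and 0.46 (SE 0.19, limma adjusted p 0.877) at 6 h, and none of the 18 alternatives called it in either comparison. Among all genes ordered by FPKM, Hsp90aa1 moved to places 23 to 47 at 1 h, against 185 to 230 in control, and Hsp90ab1 to places 28 to 41, against 65 to 109 in control.

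The balance between both forms differed between control and 1 h without overlap. Hsp90aa1 made up 33.2, 32.8 and 32.7% of the summed FPKM of Hsp90aa1 and Hsp90ab1 in control, 48.9, 51.8 and 50.4% at 1 h, and 52.4, 22.6 and 41.1% at 6 h. The control libraries lay within a span of less than a percentage point, the 1 h libraries were all near equal shares, and the 6 h libraries spread from below the controls to above the 1 h libraries. This ratio is taken within a library and does not depend on how libraries are scaled. Its log2 was 0.020 at 1 h and -1.03 in control, a difference of 1.05 that came to 0.95, 1.13 and 1.06 within replicate numbers 1, 2 and 3. An exact two-sided permutation test of 3 libraries against 3 gave p = 0.1, the smallest this design allows. At 6 h the difference from control was 0.31 (exact permutation p = 0.7), and over all 3 groups the exact permutation p was 0.186. Without 6 h replicate 2 the difference at 6 h was 0.84, and without 6 h replicate 1 it was -0.12.

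**Figure D1:**
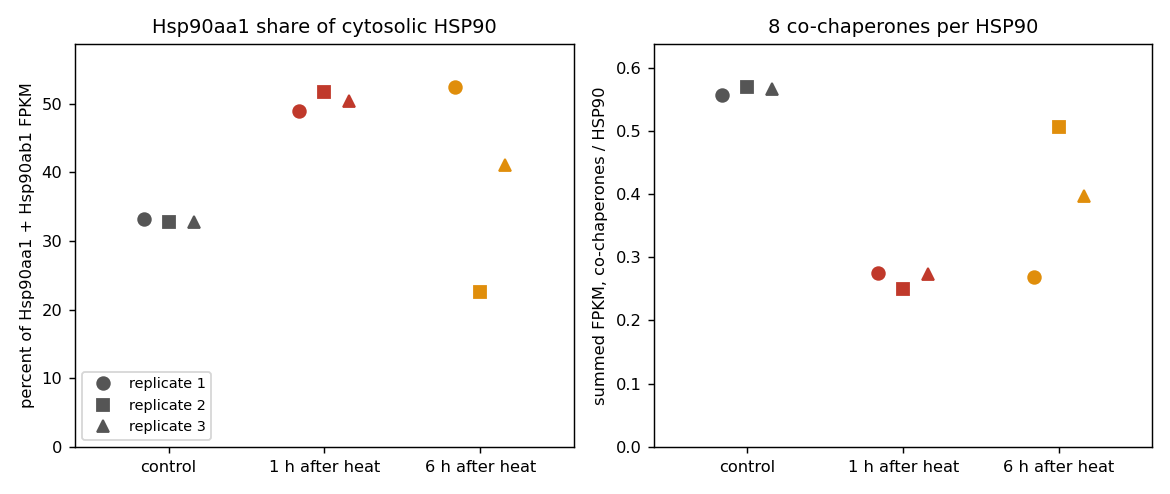
Left, share of Hsp90aa1 in the summed FPKM of Hsp90aa1 and Hsp90ab1, in percent; right, summed FPKM of the 8 co-chaperones divided by that of both HSP90 genes, with 1 point per library and replicates 1, 2 and 3 as circles, squares and triangles. Control libraries sit close together at 32.7 to 33.2% and the 1 h libraries at 48.9 to 51.8%, while the 6 h libraries spread from 22.6 to 52.4%.

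The co-chaperones that act on the HSP90 cycle itself had smaller differences. On mm10 they lie on chromosome 12 from 87266728 to 87273952 (Ahsa1, plus strand), chromosome 19 from 7020696 to 7040026 (Stip1, minus strand), chromosome 10 from 128058982 to 128077254 (Ptges3, plus strand) and chromosome 9 from 21138541 to 21149906 (Cdc37, minus strand). Ahsa1, the activator of the HSP90 ATPase, stood at 86.9, 109 and 69.6 FPKM in control, 97.2, 120 and 97.9 FPKM at 1 h and 97.7, 83.5 and 102 FPKM at 6 h. Its groups overlapped, while within replicate numbers 1, 2 and 3 the 1 h library lay above the control library by 0.16, 0.13 and 0.49 on the log2 scale. The mean log2 difference at 1 h was 0.26 (SE 0.19, limma adjusted p 0.578). It was 0.099 without control replicate 3, 0.16 without 1 h replicate 2 and 0.42 without control replicate 2. Stip1, also called HOP, which bridges HSP70 and HSP90, stood at 135, 167 and 111 FPKM in control, 163, 183 and 167 FPKM at 1 h and 154, 129 and 154 FPKM at 6 h. The 1 h libraries of Stip1 overlapped with control replicate 2, and all 6 h libraries lay below all 1 h libraries. Within replicate numbers its 1 h library lay above its control library by 0.27, 0.13 and 0.59 on the log2 scale. The mean difference was 0.33 (SE 0.17, limma adjusted p 0.505), and 0.18 without control replicate 3.

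Ptges3, or p23, which stabilises the closed ATP-bound form of HSP90, ranged from 89.1 to 137 FPKM in control, 110 to 126 FPKM at 1 h and 100.3 to 124 FPKM at 6 h, with a log2 difference of 0.094 (SE 0.18) at 1 h, which was -0.056 without control replicate 3, 0.045 without 1 h replicate 2 and 0.25 without control replicate 2. All its heated libraries lay within the range of the controls. Cdc37, which brings protein kinases to HSP90, stood at 101, 100.03 and 94.9 FPKM in control, 89.5, 86.4 and 81.9 FPKM at 1 h and 88.0, 114 and 109 FPKM at 6 h. It was the member whose 1 h libraries all lay below all controls, with a log2 difference of -0.20 (SE 0.14, limma adjusted p 0.572). Most genes had a slightly negative difference at 1 h: the median over the 11460 genes tested was -0.168, and -0.013 after median-of-ratios scaling of the libraries. Relative to that median Cdc37 stood at -0.031, and after the scaling its difference was -0.024.

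Chordc1 and Cacybp had the largest positive differences at 1 h among the co-chaperones, at 0.38 and 0.46 on the log2 scale. Chordc1, also known as morgana, whose zinc-binding CHORD domains contact HSP90, stood at 38.9, 44.5 and 41.3 FPKM in control, 49.9, 64.5 and 49.7 FPKM at 1 h and 51.3, 18.0 and 42.1 FPKM at 6 h. All 1 h libraries lay above all controls, and 6 h replicate 2 was the lowest of the 9. The SE of its difference was 0.32 (limma adjusted p 0.627), and 0.14 (limma adjusted p 0.296) in the fit of the control and 1 h libraries alone. Cacybp, the calcyclin-binding protein with an SGT1-like domain, stood at 42.5, 62.8 and 43.9 FPKM in control, 54.1, 82.9 and 69.1 FPKM at 1 h and 66.9, 31.8 and 58.6 FPKM at 6 h. Within each replicate number its 1 h library lay above its control library, by 0.34, 0.40 and 0.64 on the log2 scale, and 6 h replicate 2 was again the lowest of the 9. The SE of its difference was 0.29 (limma adjusted p 0.539). Over the 9 libraries the Pearson correlation of log2(FPKM + 1) with Hsp90aa1 was 0.85 for Cacybp, 0.77 for Chordc1 and 0.77 for Stip1, and for the other co-chaperones between -0.78 for Cdc37 and 0.66 for Ahsa1. These correlations describe 9 libraries in 3 groups that share the heat treatment.

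The promoter of Chordc1 carries heat shock element letters right at its start, so its window is shown beside those of Cdc37 and Fkbp4, the others of the 8 members searched that held a match. Hsp90aa1 and Hsp90ab1 were not searched. The windows run from 250 bases before to 50 bases after the annotated start, 5′ to 3′ on the strand of the gene, from RefSeq on GRCm38.p6. Capitals mark each GAANNTTC or TTCNNGAA, which join 2 inverted nGAAn units and were searched on both strands. A longer form holds 3 units, either GAANNTTC followed by NNGAA or TTCNNGAA followed by NNTTC, and contains the shorter one. The coordinates are chr9:18292017-18292316 (plus strand) for Chordc1, chr9:21149885-21150184 (minus strand) for Cdc37 and chr6:128438607-128438906 (minus strand) for Fkbp4.
Chordc1: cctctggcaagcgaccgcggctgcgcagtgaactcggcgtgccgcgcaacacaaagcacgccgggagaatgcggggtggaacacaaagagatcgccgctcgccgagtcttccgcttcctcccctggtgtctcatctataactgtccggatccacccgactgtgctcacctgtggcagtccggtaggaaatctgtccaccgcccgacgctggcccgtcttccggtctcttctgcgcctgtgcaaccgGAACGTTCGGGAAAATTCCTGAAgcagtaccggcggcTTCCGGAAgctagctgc
Cdc37: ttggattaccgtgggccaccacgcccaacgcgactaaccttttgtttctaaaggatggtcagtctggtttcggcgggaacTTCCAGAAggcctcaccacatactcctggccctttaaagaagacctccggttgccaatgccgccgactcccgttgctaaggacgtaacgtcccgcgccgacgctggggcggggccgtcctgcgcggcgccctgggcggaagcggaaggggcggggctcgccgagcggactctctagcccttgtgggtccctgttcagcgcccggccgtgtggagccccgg
Fkbp4: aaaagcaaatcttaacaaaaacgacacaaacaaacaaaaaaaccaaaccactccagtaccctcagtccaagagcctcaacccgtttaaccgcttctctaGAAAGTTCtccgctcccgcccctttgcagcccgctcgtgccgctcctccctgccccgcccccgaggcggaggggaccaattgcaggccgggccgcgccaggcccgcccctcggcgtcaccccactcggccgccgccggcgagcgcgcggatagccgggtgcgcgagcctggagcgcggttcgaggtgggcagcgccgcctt
Chordc1 held 5 matches of the shorter form, starting at positions -4, 1, 6, 11 and 33 from the annotated start, and 3 of the longer form. Cdc37 and Fkbp4 held 1 short match each, at positions -170 and -151, and none of the longer form. Of the 8 windows 3 held the shorter form and 1 the longer form, and the windows of Ahsa1, Stip1, Fkbp5, Ptges3 and Cacybp held neither. Over all 32851 promoter windows of that length 15.1% held the shorter form and 0.603% the longer one. A match is a string of letters and not a measured binding site. The 3 genes differed in their values at 1 h: all Chordc1 libraries lay above the controls, all Cdc37 libraries below them, and those of Fkbp4 overlapped with them.

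The immunophilins, peptidyl-prolyl isomerases that join HSP90 at steroid receptors, overlapped with control in both heated groups. On mm10 Fkbp4 lies on chromosome 6 from 128430107 to 128438631 and Fkbp5 on chromosome 17 from 28398753 to 28486149, both on the minus strand. Fkbp4, or FKBP52, stood at 29.7, 55.9 and 32.6 FPKM in control, 38.4, 45.7 and 42.0 FPKM at 1 h and 33.8, 43.6 and 38.9 FPKM at 6 h. All heated libraries lay within the range of the controls, and the log2 difference at 1 h was 0.15 (SE 0.23, limma adjusted p 0.772). It was -0.025 without control replicate 1, 0.42 without control replicate 2, 0.040 without control replicate 3 and 0.085 without 1 h replicate 2. Fkbp5, or FKBP51, a well-known target of glucocorticoid and androgen receptors, stood at 55.2, 51.1 and 84.6 FPKM in control, 46.1, 51.0 and 56.3 FPKM at 1 h and 56.6, 71.3 and 52.7 FPKM at 6 h. Its highest value was in control replicate 3, the library with the Sertoli transcripts, whose part in this value was not tested. The log2 difference at 1 h was -0.28 (SE 0.21, limma adjusted p 0.587), and with single libraries left out it ranged from -0.42 to -0.059, the value without control replicate 3.

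**Figure D2:**
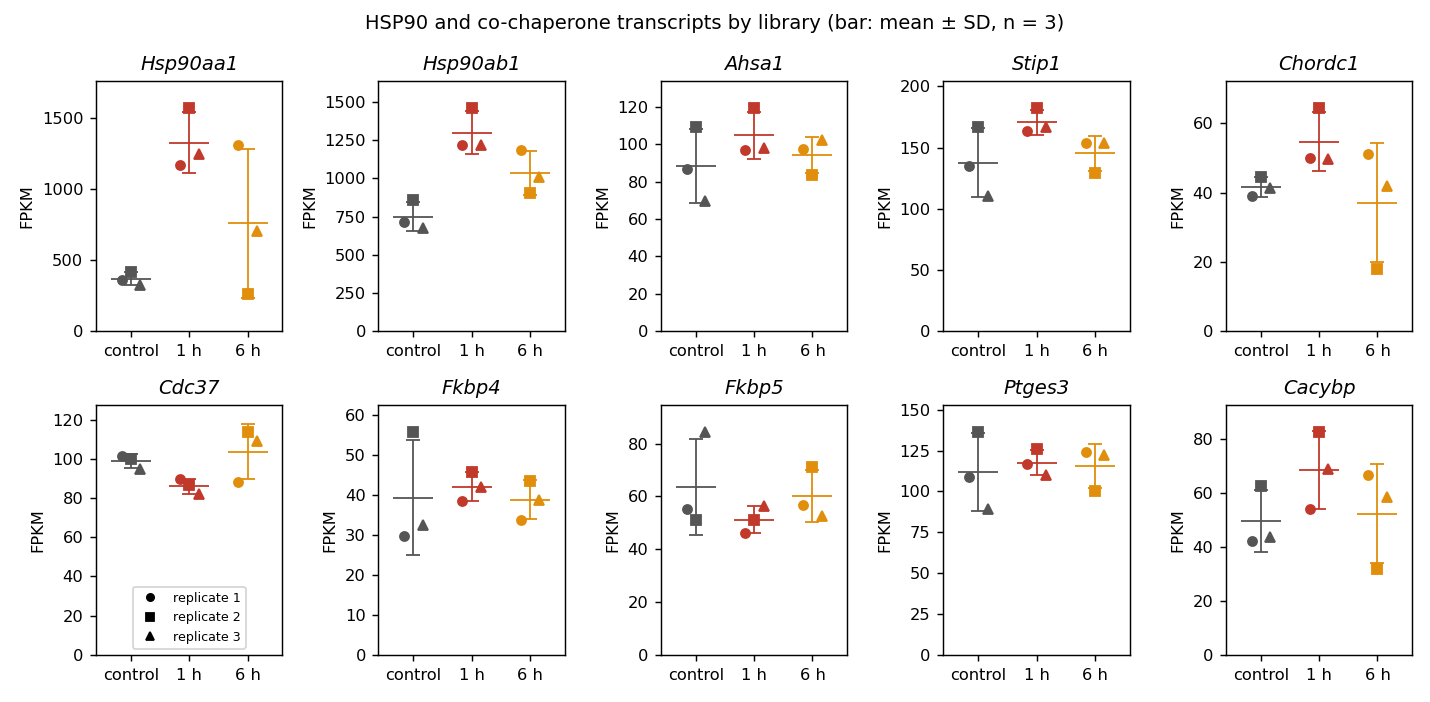
FPKM of the 10 genes in each library, with control, 1 h and 6 h on the horizontal axis, replicates 1, 2 and 3 as circles, squares and triangles, and the mean with its SD (n = 3) as a bar. Hsp90aa1 reaches 1165 to 1569 FPKM at 1 h, against 328 to 419 FPKM in control, and the square of 6 h replicate 2 lies lowest in Hsp90aa1, Chordc1 and Cacybp.

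Counted over the group, the 9-library fit called 0 of the 10 genes at 1 h (limma, adjusted p below 0.05), where 0.157% of all genes tested were called higher and 0% lower. With p unadjusted, 2 passed 0.05 as higher, Hsp90aa1 and Hsp90ab1, and 0 as lower, beside 2.76% and 8.05% of all genes. Hsp90aa1, Hsp90ab1 and Chordc1 had all 1 h libraries above all controls, 3 of 10 beside 4.49% of all genes tested, and 1 of 10, Cdc37, had them all below, beside 21.4%. The fit of the control and 1 h libraries alone called 1 of 10 higher, Hsp90aa1, beside 0.401% of all genes, and 0 lower, beside 0.00873%. Hsp90aa1 was likewise the 1 member called with the replicate block in that fit, beside 0.349% of all genes higher and 0.0175% lower, and without 6 h replicate 2, beside 0.393% higher and 0.0611% lower. Log2 differences at 1 h were positive for 8 of the 10 members and for 2731 of the 11460 genes. Their median was 0.29 for the 10 members and 0.20 for the 8 co-chaperones, beside -0.168 for all genes. Without control replicate 3 the median of the 10 members was 0.14, beside -0.15 for all genes, and no other single library moved it by more than 1.5 times. After median-of-ratios scaling the medians were 0.47, 0.38 and -0.013, and no member changed sign under that scaling or under quantile normalization.

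**Figure D3:**
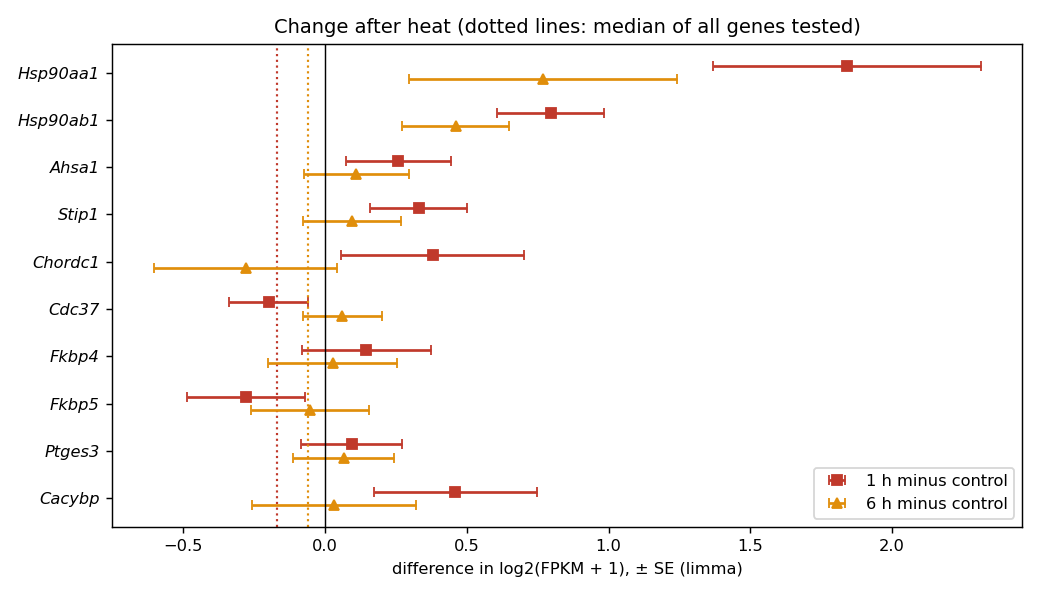
Difference in log2(FPKM + 1) from control at 1 h (squares) and 6 h (triangles) for the 10 genes, with the SE of the limma fit of all 9 libraries as bars and the medians of all 11460 genes as dotted lines. The HSP90 genes lie highest at 1 h, at 1.84 and 0.80, and the co-chaperones between -0.28 and 0.46.

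At 6 h against control 0 of the 10 genes were called (limma), where 0% of all genes were called in either direction. With p unadjusted, 1 passed 0.05 as higher, Hsp90ab1, beside 1.27% of all genes, and 0 as lower, beside 3.35%. Hsp90ab1 was also the 1 member whose 6 h libraries all lay above all controls, beside 1.89% of all genes, and 0 lay wholly below, beside 5.32%. Hsp90aa1 had a log2 difference of 0.77 (SE 0.47, limma adjusted p 0.877), and 1.39 without 6 h replicate 2. The co-chaperones ranged from -0.28 for Chordc1 to 0.11 for Ahsa1, and without 6 h replicate 2 Chordc1 stood at 0.16. In that library Hsp90aa1, Chordc1 and Cacybp lay below all controls, Hsp90ab1 and Cdc37 above all controls, and the other 5 members among them. Its summed Leydig markers, 2031 FPKM, were the highest of the 6 heated libraries, beside 2030 FPKM in 1 h replicate 3. Control replicates 1 and 2 were higher, at 2138 and 2084 FPKM. In 6 h replicate 2 Cyp11a1 at 820 FPKM and Hsd3b1 at 188 FPKM were the highest of all 9. Insl3 at 927 FPKM and Star at 96.8 FPKM lay inside the range of the other libraries in 6 h replicate 2. Its summed myoid markers, 3558 FPKM, were the lowest of all 9. Its sums of 414 FPKM for Sertoli, 205 FPKM for macrophage and 6.97 FPKM for germ cell genes lay inside the range of the other heated libraries. The part of these cells in its values was not tested.

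Set directly against 1 h, 0 of the 10 genes were called at 6 h (limma), where 0% of all genes tested were called higher and 0.279% lower. With p unadjusted, 1 passed 0.05 as lower, Hsp90aa1, beside 3.19%, and 0 as higher, beside 8.45%. The 6 h libraries of Hsp90ab1 and Stip1 all lay below the 1 h libraries, 2 of 10 beside 4.97% of all genes, and 0 of 10 lay wholly above, beside 15.2%. Hsp90aa1 had a log2 difference of -1.07 (SE 0.47, limma adjusted p 0.423), which was -0.45 without 6 h replicate 2 and -1.61 without 6 h replicate 1. Hsp90ab1 had a difference of -0.34 (SE 0.19, limma adjusted p 0.529). A test for any difference among the 3 groups called 0 of the 10 genes (limma moderated F, adjusted p below 0.05), beside 0.253% of all genes, and 2, Hsp90aa1 and Hsp90ab1, at an unadjusted p below 0.05, beside 9.33%.

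In FPKM as deposited, the sum of co-chaperone transcripts at 1 h overlapped with control while that of HSP90 did not. The sums were not rescaled, and the first part depends on scaling. The median log2 difference of the 8 co-chaperones at 1 h was 0.20, and 0.38 after median-of-ratios scaling. The 8 co-chaperones together came to 655 to 758 FPKM at 1 h, against 567 to 727 FPKM in control, and both HSP90 genes together to 2383 to 3031 FPKM at 1 h, against 1001 to 1277 FPKM in control. The co-chaperone sum per HSP90 was therefore 0.275, 0.250 and 0.274 at 1 h, against 0.557, 0.569 and 0.566 in control. At 6 h the ratio was 0.269 in replicate 1, close to the 1 h libraries, 0.397 in replicate 3 and 0.506 in replicate 2. FPKM are scaled to transcript length, so these sums compare transcripts and not proteins.

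In control cells the order of mean levels was Hsp90ab1 at 750 FPKM, Hsp90aa1 at 368 FPKM, Stip1 at 138 FPKM, Ptges3 at 112 FPKM, Cdc37 at 98.8 FPKM, Ahsa1 at 88.6 FPKM, Fkbp5 at 63.6 FPKM, Cacybp at 49.7 FPKM, Chordc1 at 41.6 FPKM and Fkbp4 at 39.4 FPKM. Hsp90ab1 and Hsp90aa1, and Hsp90aa1 and Stip1, did not overlap between libraries, while from Stip1 down each gene overlapped with the next. At 1 h both HSP90 genes had nearly equal means, 1325 FPKM for Hsp90aa1 and 1301 FPKM for Hsp90ab1.

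The 5 tested genes whose log2(FPKM + 1) followed Hsp90aa1 most closely over the 9 libraries were Hsph1 (Pearson r 0.989), Dnaja4 (0.979), Areg (0.966), Smad7 (0.963) and Hspd1 (0.957). Hsph1, an HSP110 that recharges HSP70, stood at 302 to 447 FPKM at 1 h, against 18.6 to 23.1 FPKM in control, and at 289, 15.9 and 110 FPKM in 6 h replicates 1, 2 and 3. Dnaja4, an HSP40 family member, stood at 79.2 to 151 FPKM at 1 h, against 4.80 to 9.05 FPKM in control, and at 4.85 FPKM in 6 h replicate 2. These genes were picked for their likeness over all 9 libraries, 6 h replicate 2 included. For Hsp90ab1 the 5 genes were Hspe1 (0.961), Il6ra (0.941), Hsph1 (0.918), Areg (0.912) and Hsp90aa1 (0.910). Areg and Il6ra were low, at 0.09 to 4.41 FPKM and 2.83 to 5.15 FPKM over the 9 libraries. Hspd1 and Hspe1 encode the mitochondrial chaperonin and its co-chaperonin. Hspe1 stood at 459 to 706 FPKM at 1 h, against 187 to 279 FPKM in control, and at 284 FPKM in 6 h replicate 2.

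Other genes of the HSP90 system were read from fixed lists. Of 27 further HSP90 co-chaperones 26 were tested, and 0 were called in any comparison (limma). At 1 h against control, with p unadjusted, 0 passed 0.05 as higher and 3 as lower, beside 2.76% and 8.05% of all genes. The median log2 difference was -0.19, beside -0.168 for all genes, and -0.044 beside -0.013 after median-of-ratios scaling. Those furthest from 0 were Fkbpl, an immunophilin-like protein (-0.67, SE 0.14, limma adjusted p 0.151), Tomm34, which receives mitochondrial precursors (-0.60, SE 0.18), Stub1, the ubiquitin ligase CHIP (-0.34, SE 0.18), and Ttc4 (-0.34, SE 0.16). At 6 h against 1 h Fkbpl had a difference of 0.86 (SE 0.14, limma adjusted p 0.05003), just above the threshold. In that comparison 1 gene of the list was called higher with a pseudocount of 0.1, quantile normalization or no variance trend. It was also 1 without control replicate 3, whether or not 6 h replicate 2 was left out too. The HSP90 paralogs of other compartments had small differences, 0.26 (SE 0.17) for Hsp90b1 of the endoplasmic reticulum and -0.26 (SE 0.16) for Trap1 of mitochondria.

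Several genes of the HSP70 system, from which clients pass to HSP90, rose at 1 h. Of 12 genes 6 were called higher (limma, adjusted p below 0.05) and 0 lower, beside 0.157% and 0% of all genes. The 6 were Hspa1a, Hspa1b, Dnajb1, Bag3, Dnajb4 and Dnaja1. Their median log2 difference was 2.10 over the 12, beside 0.29 for the 10 HSP90 and co-chaperone genes. The same 6 were called lower at 6 h than at 1 h, beside 0.279% of all genes. Over the alternatives 4 to 7 of the 12 were called higher at 1 h. All 1 h libraries lay above all controls for 8 of the 12, beside 4.49% of all genes, and below them for 1, Bag1, beside 21.4%. The 8 include the uncalled Hsph1 (log2 difference 4.03, SE 0.80, limma adjusted p 0.132) and Hspa8 (1.17, SE 0.24, limma adjusted p 0.140). Bag3, a co-chaperone that couples HSP70 to small heat shock proteins, stood at 479 ± 63.7 FPKM at 1 h and 64.2 ± 4.69 FPKM in control (SD, n = 3 each), a log2 difference of 2.87 (SE 0.14, limma adjusted p 1.5e-05). St13, or HIP, a co-chaperone that binds HSP70 together with HOP, had a difference of 0.064 and Bag1 one of -0.19.

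**Figure D4:**
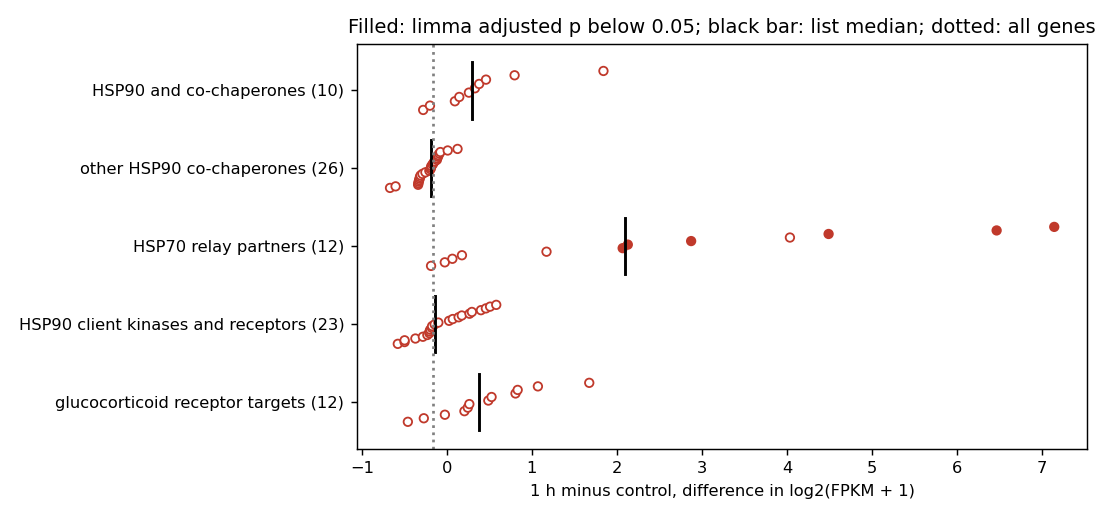
Difference in log2(FPKM + 1) between 1 h and control for the genes of 5 lists, with 1 point per gene, filled where the limma adjusted p was below 0.05, a black bar at the list median and a dotted line at the median of all genes. The median is 0.29 for the 10 HSP90 and co-chaperone genes, -0.19 for 26 other HSP90 co-chaperones and 2.10 for 12 genes of the HSP70 system (labelled HSP70 relay partners).

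Clients of HSP90 and targets of a client receptor were also counted. Of 24 client kinases and receptors 23 were tested and 0 were called in any comparison (limma), and with p unadjusted 0 passed 0.05 as higher and 2 as lower at 1 h, beside 2.76% and 8.05% of all genes. Their median was -0.14, beside -0.168 for all genes, and -0.0044 beside -0.013 after median-of-ratios scaling. Without control replicate 3 it was -0.044. Pgr, the progesterone receptor (0.58, SE 0.27), Met (-0.58, SE 0.29), Egfr (0.51, SE 0.45) and Igf1r (-0.50, SE 0.20), growth factor receptors, lay furthest from 0. Of 12 targets of the glucocorticoid receptor 0 were called (limma), and with p unadjusted 2 passed 0.05 as higher and 0 as lower at 1 h, beside 2.76% and 8.05% of all genes. Their median was 0.38, beside -0.168 for all genes, 0.58 without control replicate 1 and 0.66 without 1 h replicate 2. Errfi1, a feedback inhibitor of EGFR, lay furthest, at 588 ± 16.3 FPKM at 1 h and 210 ± 120 FPKM in control (log2 difference 1.67, SE 0.51, limma adjusted p 0.355). Sgk1, a serum- and glucocorticoid-regulated kinase, followed at 1.07 (SE 0.46), then Ddit4 at 0.83 (SE 0.39) and Dusp1 at 0.81 (SE 0.38). Differences were negative for 3 of the 12, Per1 (-0.46), Klf9 (-0.27) and Lcn2 (-0.024), as for Fkbp5.

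Markers of other cell types moved beside some of these values. Summed germ cell markers (9 genes, 2 of which reached 1 FPKM) came to 3.58 to 9.67 FPKM at 1 h and to 1.76 to 2.87 FPKM in control, without overlap, and were highest in 1 h replicate 2, the library with the highest Hsp90aa1. Ddx4 made up most of the sum in 1 h replicate 2, at 7.14 FPKM. In 1 h replicates 1 and 3 Zbtb16 was higher, at 1.56 and 1.84 FPKM, against 1.5 and 1.45 FPKM for Ddx4. Zbtb16 was also listed among the glucocorticoid receptor targets, and the lack of overlap depends on counting it as a germ cell marker. Dazl reached at most 0.11, Stra8 0.04, Tnp1 0.26 and Prm1 0.43 FPKM in any library. Summed macrophage markers (6 of 6 reached 1 FPKM) ranged from 56.05 to 227 FPKM at 1 h, 43.4 to 233 FPKM at 6 h and 54.1 to 84.4 FPKM in control. In bulk RNA a different share of cells and a different amount of RNA per cell cannot be told apart, and the part of these cells in the values above was not tested. Without control replicate 3 the log2 difference of Hsp90aa1 at 1 h was 1.76 and that of Hsp90ab1 0.72.

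Reads that match several transcripts bear on some members. Of the 50-base stretches in the coding transcripts of Hsp90aa1 in GENCODE M21, 50.1% also occur in transcripts of other genes, 44.1% in the transcribed pseudogene Gm12346. Gm12346 had no values among those deposited. Hsp90aa1 and Hsp90ab1 shared 0 such stretches. The share was 21.7% for Ptges3, nearly all of it with Ptges3-ps, 12.9% for Ahsa1 and at most 7.68% for the others. RSEM is among the tools listed, but the sources used here do not say how such reads were counted. The levels of Hsp90aa1 and Ptges3 are therefore uncertain, by an amount that these shares do not give. Chordc1 overlaps the pseudogene Gm19178 on the other strand and Fkbp5 overlaps noncoding genes on both strands, and these sources do not say whether strand was used in counting.

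The authors' deposited table gives Hsp90aa1 a log2 fold change of 1.85 at 1 h over control and 1.03 at 6 h over control. By the authors' deposited table, of the 10 members 9 had q-values of no more than 0.001 at 1 h over control, 7 at 6 h over control and 9 at 6 h over 1 h, beside 55.2%, 44.1% and 48.7% of all genes with a q-value. With a 2-fold change as well, the authors' deposited table left Hsp90aa1 at 1 h and 6 h over control and 0 members at 6 h over 1 h, beside 7.84%, 6.45% and 4.5% of all genes.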

How the data were processed

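Expression was measured by RNA-seq in 9 libraries. Per the file headers the authors' deposited values are FPKM per gene and library. RSEM 1.2.12, HISAT2 2.0.4 and Bowtie2 2.2.5 are listed with the build mm10, per the submitters' processing notes, without roles. Per the file headers the authors' q-values come from DEGseq, while the headers of their log2 fold changes name no tool. The deposited cluster number, a score used as a label, comes from Mfuzz, and the deposited transcript length (a score in bp) was used for depth. The deposited values are not counts, so tests made for counts were left out.

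The 11460 genes that reached 1 FPKM in 3 or more libraries were tested, and all 10 members passed. Values of log2(FPKM + 1) were fitted with limma 3.58.1 under R 4.3.3, a scale that understates changes of low genes, with a variance trend, 3 group means, 6 residual degrees of freedom and Benjamini-Hochberg adjustment over all genes. It was checked on simulated data. Depth was estimated over single-transcript genes of 400 to 1200 bp, where 86.6% to 90.6% of small values came within 0.2 of whole reads (40% by chance). The labels number replicates alike in each group. Deviations from group means correlated at 0.194, 0.149 and 0.262 between 1 h and control libraries of the same number. Between libraries of different number the correlations ran from -0.284 to 0.171. The highest of these, 1 h replicate 1 with control replicate 2, lay above the lowest same-number value. The numbers were taken to pair these 2 groups, although the correlations did not fully separate. They did not for the other comparisons. The members, gene lists and naming rule (all members, called list genes, the 4 list genes furthest from 0 at 1 h, and the 5 genes most like each HSP90 gene) were chosen with earlier results of these data known. Alternatives were a pseudocount of 0.1, no filter, other scalings, no trend, a replicate block, fits of 2 groups and single libraries left out.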

Additional observations from a re-analysis of the deposited data

How the results depend on the processing

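Hsp90aa1 at 1 h was called with the 2 compared groups alone and with the replicate block in that fit (1 member each), against 0 in the 9-library fit. The last setting was added after seeing the data. Leaving out single libraries gave 0 to 1 member. Genes called at 1 h against control numbered 18, 10 with no filter, 31 with quantile normalization, 47 with the 2 groups alone and 42 with the replicate block in that fit, and 8 to 52 with single libraries left out. At 6 h against control they numbered 0, and 0 to 25 with single libraries left out. At 6 h against 1 h they numbered 32, 55 with quantile normalization, 8 with the replicate block and the 2 groups, and 8 to 104 with single libraries left out. For any difference among groups they numbered 29, 19 with a pseudocount of 0.1, 13 with no filter, 18 with the replicate block, and 8 to 81 with single libraries left out. The cause was not tested.

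Of the log2 differences of the members, 24 values under an alternative had the opposite sign, all in settings that left out libraries, none of them called. With single libraries left out the differences at 6 h against control ranged from -0.049 to 0.27 for Ahsa1, -0.051 to 0.24 for Stip1, -0.57 to 0.16 for Chordc1, -0.010 to 0.17 for Cdc37, -0.14 to 0.30 for Fkbp4, -0.19 to 0.17 for Fkbp5, -0.084 to 0.22 for Ptges3 and -0.17 to 0.35 for Cacybp. At 1 h against control they ranged from -0.025 to 0.42 for Fkbp4 and from -0.056 to 0.25 for Ptges3, and at 6 h against 1 h from -0.083 to 0.070 for Ptges3. Without control replicate 3 and 6 h replicate 2 together the 6 h difference from control was 0.15 for Chordc1, -0.039 for Cdc37, -0.16 for Fkbp4 and 0.040 for Fkbp5, and Ptges3 stood at -0.056 at 1 h and 0.070 at 6 h against 1 h.

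The log2 ratio of Hsp90aa1 to Hsp90ab1 at 1 h minus control ranged from 1.01 to 1.09 with single libraries left out. At 6 h minus control it ranged from -0.12 to 0.84 and at 6 h minus 1 h from -1.17 to -0.21. With the replicate block (differences within numbers) it was 1.05 at 1 h with an exact permutation p of 0.25, the smallest that 3 pairs allow. No other call on the members changed with the replicate block.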

Other observations

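In control and at 1 h each member was highest in the library of the same number, but the rest of the order differed. Control replicate 3 was the lowest control library for 6 members, and 1 h replicate 1 the lowest 1 h library for 7. Control replicate 2 was the highest control library for 8 of the 10 members and 1 h replicate 2 the highest 1 h library for 8, in both cases Hsp90aa1, Hsp90ab1, Ahsa1, Stip1, Chordc1, Fkbp4, Ptges3 and Cacybp. In both groups Cdc37 was highest in replicate 1 and Fkbp5 in replicate 3. At 6 h replicate 2 was instead the lowest library for 7 members and the highest for Cdc37, Fkbp4 and Fkbp5. Ahsa1 and Stip1, which act at different steps of the HSP90 cycle, had the closest course among the co-chaperones (Pearson r 0.96 over 9 libraries), while Fkbp5 ran opposite to Stip1 (-0.87), Ptges3 (-0.85) and Ahsa1 (-0.84). Fkbp5 was highest in control replicate 3, at 84.6 FPKM, the library with the lowest Ahsa1, Stip1 and Ptges3 of all 9. Its next highest value, 71.3 FPKM, was in 6 h replicate 2. How far these correlations rest on such libraries was not tested.

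The authors' deposited table places Hsp90aa1, Hsp90ab1 and Ptges3 in its time-course cluster 4, Ahsa1, Stip1, Chordc1, Fkbp4 and Cacybp in cluster 9, Cdc37 in cluster 1 and Fkbp5 in cluster 12.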
